A study of Rattus norvegicus with 23 samples.

Results

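The interferon response genes described here are 35 genes of the rat genome, chosen by name with earlier results of these data known. Each was found as 1 row of the 30562 genes in the deposited tables. Of these 35, 33 passed the filter on low counts and were tested among 15271 genes. The remaining members were Isg15, listed at 0 counts in every library, and Irf9, with 84 counts in all. The genes were measured by polyA RNA-seq in whole femora of female Wistar rats, in 23 libraries of 5 groups. In 4 groups the rats had MetOP, the study's model of metabolic osteoporosis, which combines high-fat feeding with L-NAME, a blocker of nitric oxide synthesis. MetOP rats received semaglutide together with PYY3-36 (combination, n = 5), semaglutide (n = 5), PYY3-36 (called PYY here, n = 4) or saline (n = 5), and healthy controls on a standard diet received saline (n = 4). Semaglutide is a GLP-1 receptor agonist, and PYY3-36 is a gut hormone acting on a neuropeptide Y receptor. The labels used here give no age, dose or duration.

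The labels of the 4 PYY libraries end in different peptide numbers (PYY3-36, PYY3-37, PYY3-38 and PYY3-39), so their grouping rests on the shared title. Titles of all MetOP libraries carry the unexplained letters lfd after those of the high-fat diet, so the diet at sampling is not known. Titles carry LN in MetOP libraries and oLN in healthy controls. All libraries bear the same batch label. Whether the libraries within a group stem from different animals is not stated, and p-values therefore measure only the spread between these samples, which may be technical.

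Interferons are secreted proteins that bind receptors on the cell surface and, through JAK kinases, activate STAT proteins. A complex with STAT2 and IRF9 binds the interferon-stimulated response element in the promoters of many genes, whose products sense viral RNA, block steps of viral growth and adjust the response itself. In bone marrow the response is known from blood-forming and immune cells, and type I interferon is known to restrain osteoclast formation in mice. In whole femora, a gene's lower level may come from fewer cells of a type or from less RNA per cell, which cannot be told apart in bulk RNA.

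Promoter windows of the members were searched for the DNA element of the response. The members were chosen as genes of that response, so their share of matches is not independent of the choice. RefSeq windows of the GRCr8 build, running from 250 bases before to 50 bases after each gene's start, were matched by symbol for 25 of the 35 members. The core of the interferon-stimulated response element, searched on both strands as GAAANNGAA, was present in 17 of these 25 windows (68.0%) and in 3251 of 33469 windows of all genes (9.713%). Windows of Irf1, Irf9, Stat2, Oasl, Mx1, Herc6, Trim25 and Parp9 did not hold these letters. With 1 mismatch allowed in the fixed bases, the shares were 92.0% of the members' windows and 68.53% of all windows. The element read by STAT dimers, TTCNNNGAA, which reads the same on both strands, was present in 6 of the 25 windows (24.0%) and in 8.874% of all windows. Below, the most abundant member of each role that has such a window with a match is shown, with the core in capitals (or its reverse complement, where it lies on the opposite strand). The windows lie at chr1:205799974-205800273 on the minus strand (Irf7), chr6:21940904-21941203 on the plus strand (Eif2ak2), chr16:18254918-18255217 on the minus strand (Bst2), chr11:78407884-78408183 on the plus strand (Parp14) and chr6:128355062-128355361 on the plus strand (Ifi27).
Irf7: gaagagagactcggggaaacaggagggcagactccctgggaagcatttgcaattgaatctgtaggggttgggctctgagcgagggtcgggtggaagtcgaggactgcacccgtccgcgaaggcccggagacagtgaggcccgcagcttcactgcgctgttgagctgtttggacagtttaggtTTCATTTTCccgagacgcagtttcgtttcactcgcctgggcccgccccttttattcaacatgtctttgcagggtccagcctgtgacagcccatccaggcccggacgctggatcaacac
Eif2ak2: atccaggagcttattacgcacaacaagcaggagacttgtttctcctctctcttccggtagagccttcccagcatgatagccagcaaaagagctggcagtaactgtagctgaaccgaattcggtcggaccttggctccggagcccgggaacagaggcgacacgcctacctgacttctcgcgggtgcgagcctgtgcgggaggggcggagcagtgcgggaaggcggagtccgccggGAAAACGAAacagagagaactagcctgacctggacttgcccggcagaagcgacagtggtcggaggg
Bst2: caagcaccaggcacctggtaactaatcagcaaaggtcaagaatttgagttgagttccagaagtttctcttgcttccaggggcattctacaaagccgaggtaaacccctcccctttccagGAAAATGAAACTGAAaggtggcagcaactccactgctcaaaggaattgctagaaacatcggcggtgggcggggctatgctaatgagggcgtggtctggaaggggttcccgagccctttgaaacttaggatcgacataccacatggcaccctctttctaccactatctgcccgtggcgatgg
Parp14: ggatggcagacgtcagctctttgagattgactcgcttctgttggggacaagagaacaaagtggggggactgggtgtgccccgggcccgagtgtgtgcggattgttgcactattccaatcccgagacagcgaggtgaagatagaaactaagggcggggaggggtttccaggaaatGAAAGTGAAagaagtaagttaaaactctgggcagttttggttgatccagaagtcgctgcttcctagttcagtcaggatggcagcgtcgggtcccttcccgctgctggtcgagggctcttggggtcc
Ifi27: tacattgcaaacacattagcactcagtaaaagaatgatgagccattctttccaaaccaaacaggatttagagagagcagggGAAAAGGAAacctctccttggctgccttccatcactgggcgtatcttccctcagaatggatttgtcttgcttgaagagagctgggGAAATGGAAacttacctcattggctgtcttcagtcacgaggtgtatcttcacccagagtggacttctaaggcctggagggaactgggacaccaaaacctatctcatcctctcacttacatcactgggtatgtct
Bases are counted from 1 at the first base of the gene, with negative numbers before it. The core lay at -68 to -60 in Irf7 and at -16 to -8 in Eif2ak2. In Bst2 it was present as a pair of overlapping copies, at -131 to -123 and at -125 to -117. In Parp14 it lay at -76 to -68, and in Ifi27 as a pair of separate copies at -169 to -161 and at -84 to -76. Windows of Herc6 and Trim25 held no match, and Usp18 had no window, so no promoter is shown for the ISG15 pathway. A match is a description of the letters and not a measured binding site.

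Library totals ran from 19.25 to 40.65 M counts (M, mega). The 37 mitochondrially encoded genes took 46.13 to 83.92% of them and all other genes 4.28 to 16.1 M counts. Levels are given as counts per M (CPM) scaled by TMM factors, and fold changes as log2 values ± standard error (SE). Summed skeletal muscle markers ran from 1556 to 63900 CPM in combination libraries, 17120 to 58680 with semaglutide, 2965 to 24410 with PYY, 16170 to 34410 in MetOP saline and 25140 to 51710 in healthy controls. Osteoblast markers, which mark the labelled bone tissue, were present in all libraries at summed levels of 150 to 1405 CPM in combination libraries, 183 to 778 with semaglutide, 192 to 6987 with PYY, 381 to 6882 in MetOP saline and 1155 to 6429 in healthy controls. The common biological coefficient of variation was 69.9%. At a count of 0 the upper limit is 3 counts, which equals 0.0594 to 0.2 CPM on the same TMM scale by library and covers counting error only.

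By length-scaled level (mean FPKM over 23 libraries), the members spanned a wide range. The highest were Ifi27 (29.9 FPKM), a small membrane protein, and Bst2 (13.1), tetherin, which holds budding virus particles on the cell. Rsad2 (12.0), viperin, which makes a chain-terminating nucleotide, Irf7 (7.14), the main transcription factor for interferon alpha genes, and Lgals3bp (4.53), a secreted glycoprotein, followed. The lowest were Isg15 (0), Irf9 (0.0623), Oas3 (0.132), Oas2 (0.153) and Oasl (0.522). Isg15 encodes the ubiquitin-like protein that interferon attaches to other proteins, and its row (chromosome 5, 166784148 to 166785435, minus strand, mRatBN7.2) lies over that of Agrn on the same strand, which had 11000 counts. Irf9 (chromosome 15, 29095789 to 29101236, plus strand) likewise lies over Rnf31 on the same strand, which had 5459 counts, and 18 of 23 libraries had no Irf9 count. The labels do not say how reads in such overlaps were counted, so the values of both rows are uncertain. Low counts in Oas2, Oas3, Oasl and Zbp1 left 11, 9, 7 and 5 libraries at 0, and members of the Oas, Mx, Ifit and Gbp families may share reads with close copies.

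No member passed the threshold of an adjusted p under 0.05 in any of the 8 comparisons (edgeR quasi-likelihood test, Benjamini-Hochberg over 15271 genes). Over all genes, 0.00655% passed in semaglutide versus PYY, which was the collagen receptor gene Ddr2 alone, and 0.0% in the other 7 comparisons. DESeq2 and limma voom also called 0 members, and over 31 other settings with 4910 tests of members the smallest adjusted p was 0.1128. At an unadjusted p under 0.05, 0 to 3 members passed in each comparison. They were 0 of 33 in combination versus MetOP saline (all genes 3.06%), 3 in semaglutide versus MetOP saline (all genes 11.4%), 2 in PYY versus MetOP saline (all genes 4.85%) and 2 in MetOP saline versus healthy control (all genes 6.55%). Between drug groups they were 1 in combination versus semaglutide (all genes 5.65%), 0 in combination versus PYY (all genes 6.24%) and 0 in semaglutide versus PYY (all genes 16.9%). The interaction of both drugs, which asks how far the combination differs from the sum of the single log2 effects, gave 3 (all genes 4.58%).
Members whose groups did not overlap in CPM were at most 2 in a comparison. Usp18 and Rtp4 were apart in PYY versus MetOP saline (2 of 33, all genes 1.93%), and Bst2 in combination versus PYY (1 of 33, all genes 1.59%). The other comparisons gave 0 of 33. There the shares of all genes were 0.399% for combination versus MetOP saline, 4.47% for semaglutide versus MetOP saline and 2.78% for MetOP saline versus healthy control. They were 0.57% for combination versus semaglutide and 5.88% for semaglutide versus PYY.

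The level of the members as a set varied from library to library. For each library, a score was taken as the median over the 33 tested members of the deviation of log2 CPM from the gene's own mean. Semaglutide A241 scored 1.34, with 31 of 33 members above their own median over all libraries and 15 members at their highest value of all 23 libraries. Combination A320 scored 0.91 with 30 of 33 members above their median, and PYY A219 scored 0.71 with 28. At the other end, combination A251 scored -1.13, semaglutide A238 -0.98 and semaglutide A243 -0.97, each with 1 of 33 members above its median. Healthy control A389 scored -0.82 with 2 of 33, and 22 members had their lowest value among healthy controls in it. The same score over all tested genes stayed between -0.08 and 0.15, which TMM scaling holds near 0 by its construction.

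**Figure D1:**
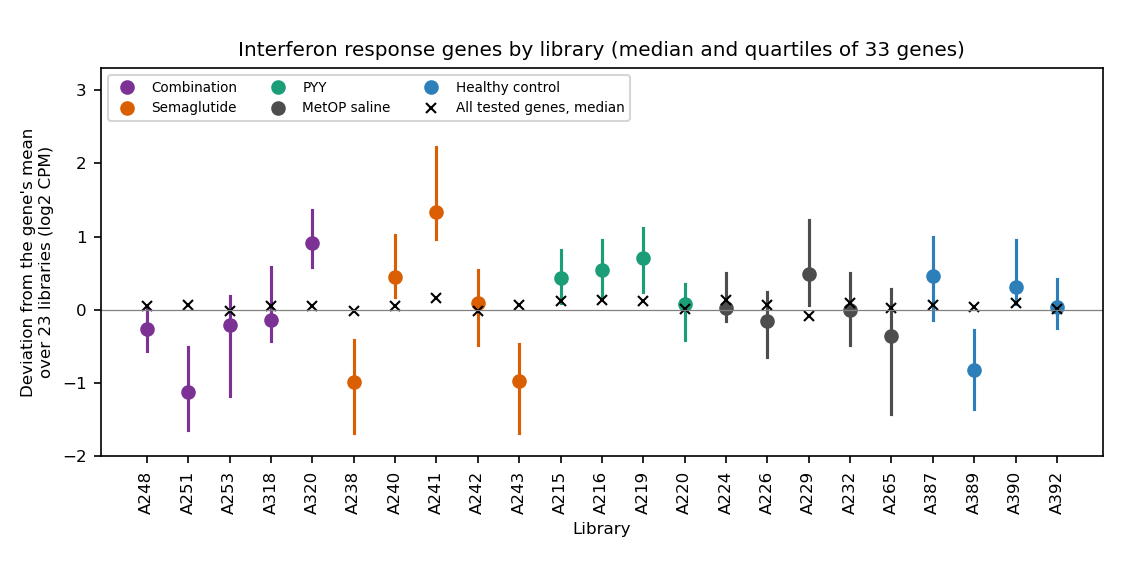
Deviation of log2 CPM from each gene's mean over 23 libraries (vertical axis) in each library (horizontal axis, coloured by group), as median (points) and quartiles (bars) of 33 interferon response genes. Crosses give the median of all 15271 tested genes, which TMM scaling holds near 0, while the members range from -1.13 in combination A251 to 1.34 in semaglutide A241.

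Both extremes occurred within treatment groups. The score averaged -0.17 ± 0.72 (SD, n = 5) in combination libraries, -0.01 ± 0.99 (n = 5) with semaglutide, 0.44 ± 0.27 (n = 4) with PYY, -0.00 ± 0.31 (n = 5) in MetOP saline and -0.00 ± 0.58 (n = 4) in healthy controls. The 5 group means spanned 0.605, while the range within a group ran from 0.631 (PYY) to 2.32 (semaglutide). For single members, the SD within groups was larger than the whole range of the 5 group means for 17 of 33. The median SD within groups was 0.946 on the log2 scale, and that of the group means was 0.367. Means of 4 or 5 libraries vary less than single libraries do, so these spreads cannot be set against each other directly. The same counts were not taken over all genes.

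Markers of several marrow cells moved with the score in the 2 highest and 3 lowest libraries. Relative to its mean over all libraries, the neutrophil list deviated by 2.28 in A241 and by 2.84 in A320 (mean of its genes, log2 CPM). It deviated by -3.25 in A251, -2.66 in A238 and -1.98 in A243. The B cell list deviated by 2.11 in A241 and 2.60 in A320, and by -2.76 in A251, -2.49 in A238 and -0.39 in A243. Macrophage markers deviated by 0.29 in A241 and 0.69 in A320, against -1.85 in A251, -1.79 in A238 and -1.31 in A243. The erythroid list deviated by 0.64 in A241 and 1.70 in A320, and by -3.05 in A251, -2.54 in A238 and -1.71 in A243. The T and NK cell list deviated by 1.21 in A241 and 3.10 in A320, and by -1.22 in A251, -1.25 in A238 and -0.95 in A243. Muscle markers deviated by 1.49 in A251, 1.496 in A238 and 1.07 in A243, but by 1.23 in A241 and -3.76 in A320. Other libraries differed by list. PYY A219, the third highest, scored 0.71 with a neutrophil deviation of -0.58 and a macrophage deviation of 0.14. PYY A216 scored 0.54 with deviations of 0.15 in the neutrophil, 1.91 in the B cell and 0.88 in the macrophage list, and PYY A215 scored 0.43 with -1.58 in the neutrophil list. In these PYY libraries the endothelial list deviated by 1.27 (A219), 0.63 (A216) and 0.93 (A215), and the erythroid list by 1.19, 0.02 and -1.33. Endothelial deviations were -0.20 in PYY A220, -0.67 in A241 and 0.51 in A320. Healthy control A389 scored -0.82 with deviations of 0.03 in the neutrophil, -0.88 in the macrophage and 1.28 in the muscle list. Markers of plasmacytoid dendritic cells, which are known as strong producers of interferon, deviated by 0.70 in A241 and 0.81 in A320 and by -1.51 in A238, and by -0.22 in A251 and 0.51 in A243. Their defining marker Siglech was at 0 in all libraries, as was Klrb1 of the T and NK cell list. Summed neutrophil markers ran from 69.4 to 3737 CPM in combination libraries, 100 to 2175 with semaglutide, 201 to 962 with PYY, 712 to 1377 in MetOP saline and 574 to 1282 in healthy controls. The part of these cells in the members' levels was not tested beyond the fits with a marker level as a covariate, in which no member was called.

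Not every member followed the rest. Each member was compared with the median of the other members by whether it lay on the same side of its own median over the 23 libraries. Lgals3bp and Irf7 did so in 21 of 23 libraries, the most of the 33. Of the 33 members, 10 did so in at least 18 libraries, these 2 with Ifih1, Eif2ak2, Mx1, Bst2, Herc6, Parp9, Parp14 and Rtp4. The median over members was 17 of 23. The lowest were Ifit1 with 11 of 23, and Cmpk2 and Ifi27 with 13 each. Over all 528 pairs of members, the median was 15 of 23 libraries on the same side. Rsad2 and Cmpk2, which lie 14097 bases apart on chromosome 6, were on the same side in 17 libraries. Parp9 and Dtx3l, whose rows overlap on opposite strands of chromosome 11, were so in 17, and Ifit1 and Ifit2, 18535 bases apart on chromosome 1, in 13. These counts describe libraries that share tissue makeup and depth and carry no test. They were not taken for other genes, so they do not show whether the agreement is particular to these members.

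**Figure D2:**
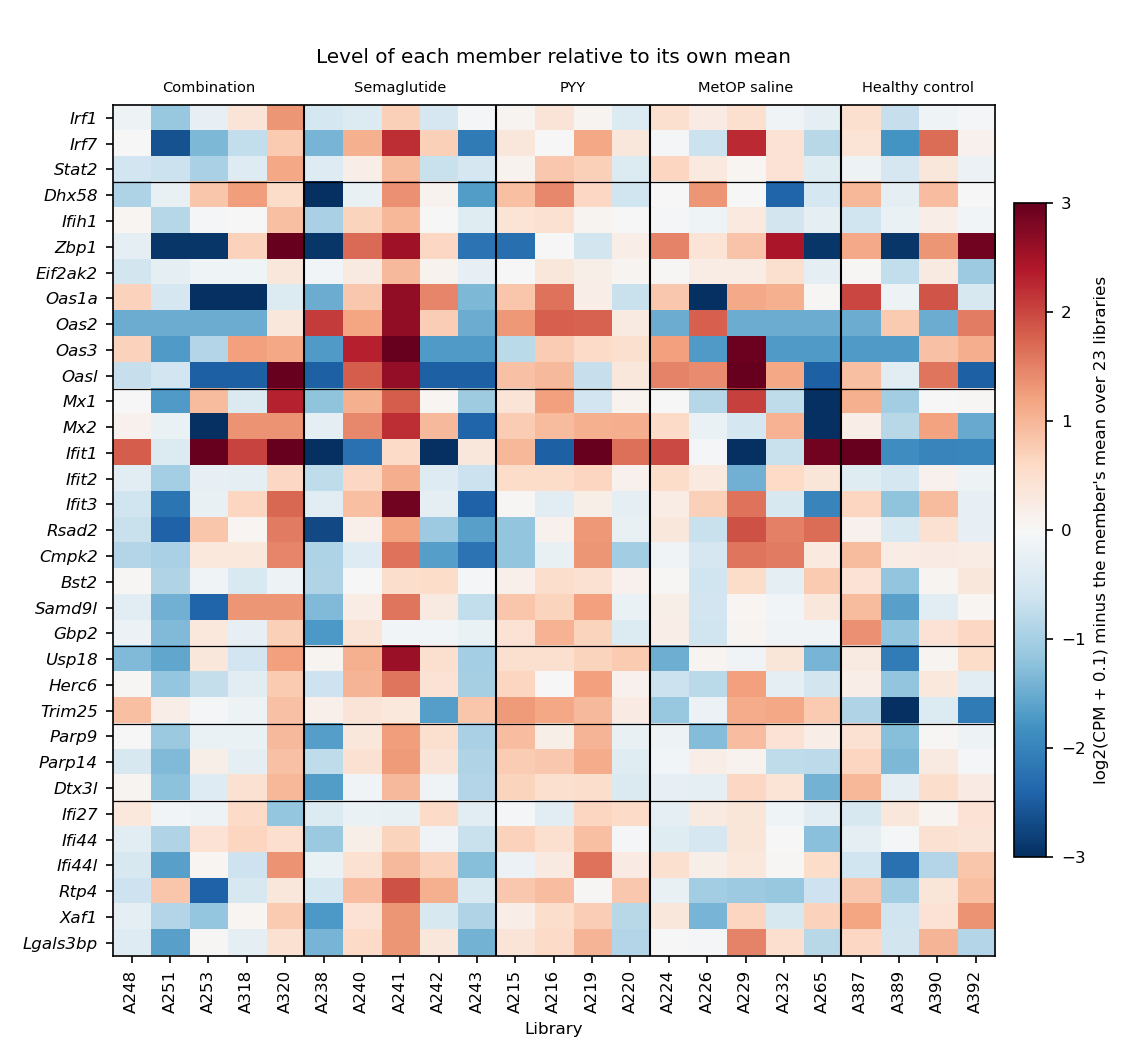
Each of the 33 tested members (rows, in role groups divided by lines) in each of 23 libraries (columns, by group), as log2(CPM + 0.1) minus the member's mean over libraries; red is above and blue below that mean, and the scale ends at 3 on either side. Columns A241 and A320 are red and A251, A238 and A243 blue over most rows, whereas Ifit1 has a pattern of its own.

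Transcription factors of the response came first in the comparison by role. Irf7 is itself induced by interferon and amplifies the response. In the order of the library numbers within a group, which holds for all values below (combination A248, A251, A253, A318, A320, semaglutide A238, A240, A241, A242, A243, PYY A215, A216, A219, A220, MetOP saline A224, A226, A229, A232, A265, healthy controls A387, A389, A390, A392), Irf7 had 10.4, 1.61, 3.99, 6.18 and 17.99 CPM in combination libraries and 3.87, 21.6, 48.5, 16.9 and 2.28 with semaglutide. It had 13.1, 10.4, 23.3 and 13.2 CPM with PYY, 10.2, 6.55, 49.2, 13.9 and 5.81 in MetOP saline and 13.8, 2.92, 33.3 and 11.4 in healthy controls. A241 and A229 stood high, and all groups overlapped. Leaving out 1 library moved 34 of the 48 fold changes named here and below by over 1.5 times, and those values are given with the library left out, other than for Oas2. The largest difference from MetOP saline was that of the combination, with 8.03 ± 6.44 CPM in combination libraries and 17.1 ± 18.2 in MetOP saline (SD, n = 5 each, log2 fold change -1.09 ± 0.75, edgeR adjusted p = 1.0), and its fold change was -0.19 without A229. Irf1, an early factor that also answers interferon gamma, ran from 3.69 to 21.01 CPM in combination libraries and from 5.71 to 13.7 with semaglutide (log2 fold change 0.34 ± 0.36, edgeR adjusted p = 0.8635). That value was 0.63 without A241, 0.59 without A251 and -0.13 without A320, so its direction rested on A320. Stat2, which acts with IRF9, averaged between 7.84 CPM in healthy controls and 10.9 CPM with PYY.

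Sensors of viral RNA and enzymes they switch on formed the second group. Eif2ak2, the kinase PKR that stops translation on double-stranded RNA, averaged 11.9 ± 2.25 CPM in MetOP saline (n = 5) and 8.75 ± 3.75 in healthy controls (SD, n = 4), a log2 fold change of 0.44 ± 0.28 (edgeR adjusted p = 0.8989), which was 0.68 without A390 and 0.24 without A392. Oas enzymes make a second messenger that activates an RNA-degrading nuclease. Oas2 had 0, 0, 0, 0 and 0.251 CPM in combination libraries, 1.096, 0.532, 1.68, 0.362 and 0 with semaglutide and 0.582, 0.871, 0.857 and 0.238 with PYY. It had 0, 0.8601, 0, 0 and 0 CPM in MetOP saline and 0, 0.381, 0 and 0.711 in healthy controls. Only A320 of the combination libraries had any count, whereas 4 of 5 semaglutide libraries and all PYY libraries had some. The fitted change was -3.70 ± 1.89 for combination versus semaglutide and -3.50 ± 1.91 for combination versus PYY (edgeR adjusted p = 0.8157 and 0.8581), and it depends on how zeros are offset, since a group near 0 sets no true fold. Without A320 all combination libraries were at 0, and without A226 all saline ones, so no fold is given for those cases. The interaction was -5.54 ± 2.59 (edgeR adjusted p = 0.9988). Oas1a, of the same family, averaged 0.581 ± 0.648 CPM in combination libraries and 2.33 ± 2.58 with semaglutide (SD, n = 5 each, log2 fold change -1.997 ± 1.13, edgeR adjusted p = 0.8157, and -1.13 without A241). Oas3 averaged 1.15 ± 1.83 CPM with semaglutide (n = 5) and 0.3202 ± 0.161 with PYY (SD, n = 4), and semaglutide A241 alone had 4.19 CPM. Its log2 fold change of 1.83 ± 1.96 (edgeR adjusted p = 0.6891) was 0.26 without A241 and -1.26 under limma voom.
Zbp1, which senses left-handed nucleic acid and can trigger cell death, was at 0 in 5 libraries and reached 8.57 CPM in combination A320. Its PYY libraries ran from 0.0582 to 0.772 CPM, against 0 to 4.02 in MetOP saline (log2 fold change -1.78 ± 1.61, edgeR adjusted p = 0.9999), a value that was -1.13 without A232 and, with the leukocyte marker level as a covariate, 0.14. In combination versus PYY it was 2.09 ± 1.63 (edgeR adjusted p = 0.9357) and -0.22 without A320. In semaglutide versus PYY it was 1.69 ± 1.60 (edgeR adjusted p = 0.6405) and 0.85 without A241. Dhx58, Ifih1 and Oasl, the other members of the role, were named in no comparison by the smallest p.

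Antiviral effectors formed the largest role, with 10 members. Rsad2 had its highest group mean in MetOP saline, with 28.6, 14.1, 85.2, 64.02 and 71.9 CPM there, against 24.5, 16.3, 30.9 and 18.9 in healthy controls. Among treated rats it had 14.2, 4.096, 40.1, 23.5 and 66.6 CPM in combination libraries, 3.37, 24.9, 51.9, 10.5 and 7.25 with semaglutide and 9.86, 24.7, 55.5 and 19.3 with PYY. In MetOP saline, 3 libraries lay above every healthy control and 1 lay below all of them, so the groups overlapped. The log2 fold change was 1.22 ± 0.72 in MetOP saline versus healthy control (edgeR adjusted p = 0.8746). Against MetOP saline it was -0.83 ± 0.67 for the combination, -1.43 ± 0.68 for semaglutide and -0.95 ± 0.72 for PYY (edgeR adjusted p = 1.0, 0.4275 and 0.9999), comparisons that share the saline libraries. The combination value was -0.52 without A251 and -1.36 without A320, the semaglutide value -2.20 without A241 and the PYY value -0.59 without A215 and -1.47 without A219. In combination versus semaglutide Rsad2 gave 0.60 ± 0.67 (edgeR adjusted p = 0.8696), which was 0.33 without A238, 1.37 without A241, 0.39 without A243, 0.93 without A251 and 0.06 without A320. Cmpk2, a mitochondrial nucleotide kinase encoded beside Rsad2, averaged 6.904 ± 8.53 CPM with semaglutide, 7.47 ± 6.87 with PYY and 12.4 ± 8.04 in MetOP saline (SD, n = 5, 4 and 5). Its log2 fold changes from saline were -0.85 ± 0.66 with semaglutide and -0.74 ± 0.70 with PYY (edgeR adjusted p = 0.6231 and 0.9999). With semaglutide it was -0.56 without A229 and -1.99 without A241, and with PYY -0.39 without A215, -1.52 without A219, -0.49 without A220, -0.45 without A229 and -0.47 without A232. The interaction gave 1.55 ± 0.98 for Rsad2 and 1.09 ± 0.96 for Cmpk2 (edgeR adjusted p = 0.9988 each), where Rsad2 was 1.01 without A320 and Cmpk2 1.93 without A219, 2.23 without A241 and 0.57 without A320.

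Ifit genes encode proteins that bind foreign RNA ends and block its translation. Ifit1 had 12.6, 2.62, 49.2, 14.5 and 64.1 CPM in combination libraries, 0, 0.665, 5.29, 0 and 4.502 with semaglutide and 7.07, 0.557, 39.4 and 11.3 with PYY. It had 14.3, 3.44, 0, 2.17 and 26.9 CPM in MetOP saline and 40.3, 0.888, 0.821 and 0.829 in healthy controls. Of the combination libraries, 4 lay above all semaglutide libraries and A251 lay among them. The mean was 28.6 ± 26.5 CPM in combination libraries and 2.09 ± 2.59 with semaglutide (SD, n = 5 each), a log2 fold change of 3.77 ± 1.52 (edgeR unadjusted p = 0.0216, adjusted p = 0.8157). Against MetOP saline the combination gave 1.61 ± 1.38 and semaglutide -2.15 ± 1.43 (edgeR adjusted p = 1.0 and 0.5588), and semaglutide versus PYY gave -2.79 ± 1.5 (adjusted p = 0.3509). Combination versus PYY gave 0.97 ± 1.46 and the interaction 3.12 ± 2.05 (edgeR adjusted p = 0.9768 and 0.9988). Against MetOP saline, the combination value was 2.50 without A265 and the semaglutide value -1.26 without A265. Against PYY, the combination value was 0.57 without A216, 2.13 without A219 and 0.44 without A320 and the semaglutide value -1.68 without A219. Ifit1 (chromosome 1, 232127170 to 232154435, plus strand) overlaps Ifit1bl on the opposite strand, which had 7212 counts to the 8795 of Ifit1. Ifit1bl gave -0.62 ± 0.87 in combination versus semaglutide (edgeR adjusted p = 0.8937), opposite in sign to Ifit1.
Ifit2 averaged 8.09 ± 3.48 CPM in combination libraries (n = 5) and 12.7 ± 1.96 with PYY (SD, n = 4), with 4 of 5 combination libraries below all PYY libraries (log2 fold change -0.64 ± 0.39, edgeR adjusted p = 0.9007). Ifit3 averaged 6.67 ± 9.04 CPM with semaglutide (n = 5) and 2.78 ± 0.479 with PYY (SD, n = 4), and A241 alone had 22.5 CPM. Its log2 fold change of 1.26 ± 0.85 (edgeR adjusted p = 0.4765) was -0.04 without A241. In combination versus PYY, Ifit3 gave 0.50 ± 0.84 (edgeR adjusted p = 0.9784) and -0.20 without A320.

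Bst2 was the member whose combination and PYY libraries stood fully apart. It had 10.9, 5.61, 9.83, 7.72 and 9.48 CPM in combination libraries, against 11.8, 15.4, 14.5 and 11.6 with PYY. All 5 combination libraries lay below all 4 PYY libraries, by a narrow gap. The other groups had 5.63, 10.5, 15.3, 15.5 and 10.3 CPM with semaglutide, 10.8, 7.004, 15.6, 8.83 and 18.3 in MetOP saline and 14.2, 4.61, 11.1 and 13.3 in healthy controls, which overlapped both. The means were 8.71 ± 2.08 CPM in combination libraries (n = 5) and 13.3 ± 1.92 with PYY (SD, n = 4), a log2 fold change of -0.61 ± 0.33 (edgeR unadjusted p = 0.0749, adjusted p = 0.8475). Against MetOP saline the combination gave -0.47 ± 0.31 (edgeR adjusted p = 1.0), and -0.27 without A265. Gbp2, a large GTPase known for its response to interferon gamma, averaged 6.63 ± 1.32 CPM in MetOP saline (n = 5) and 10.4 ± 6.26 in healthy controls (SD, n = 4, log2 fold change -0.65 ± 0.44, edgeR adjusted p = 0.9055), and its fold change was -0.23 without A387. In semaglutide versus PYY it gave -0.73 ± 0.44 (edgeR adjusted p = 0.4086). Mx1, Mx2 and Samd9l, which restrict viral growth, were named in no comparison by the smallest p.

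Of the ISG15 pathway, Usp18 removes ISG15 from proteins and also damps signalling at the type I interferon receptor. Usp18 had 0.573, 0.47, 2.05, 1.04 and 3.86 CPM in combination libraries and 1.68, 3.41, 10.01, 2.24 and 0.74 with semaglutide. It had 2.27, 2.27, 2.601 and 2.81 CPM with PYY, 0.513, 1.68, 1.47, 2.06 and 0.545 in MetOP saline and 1.92, 0.296, 1.69 and 2.37 in healthy controls. All 4 PYY libraries lay above all 5 MetOP saline libraries, and 3 of 5 semaglutide libraries did so. With semaglutide the mean was 3.62 ± 3.702 CPM, against 1.25 ± 0.695 in MetOP saline (SD, n = 5 each), a log2 fold change of 1.52 ± 0.69 (edgeR unadjusted p = 0.0384, adjusted p = 0.4154). It was 0.68 without A241. For PYY, the mean was 2.49 ± 0.268 CPM (n = 4) and the log2 fold change from saline 0.99 ± 0.72 (edgeR adjusted p = 0.9999). The interaction was -2.15 ± 0.99 (edgeR unadjusted p = 0.0403, adjusted p = 0.9988), and -1.31 without A241.
Trim25, a ubiquitin ligase that activates the sensor RIG-I and is itself modified by ISG15, had the smallest p of the members in MetOP saline versus healthy control. It had 0.565, 1.19, 3.07, 3.15 and 2.42 CPM in MetOP saline, against 0.677, 0, 1.004 and 0.237 in healthy controls. A224 lay among the healthy controls, and the other 4 MetOP saline libraries lay above every healthy control. The mean was 2.08 ± 1.16 CPM in MetOP saline (n = 5) and 0.479 ± 0.448 in healthy controls (SD, n = 4), a log2 fold change of 2.10 ± 0.79 (edgeR unadjusted p = 0.0142, adjusted p = 0.6825). The drug groups had 2.63, 1.58, 1.32, 1.21 and 2.58 CPM in combination libraries, 1.53, 1.82, 1.71, 0.362 and 2.498 with semaglutide and 3.402, 3.17, 2.78 and 1.62 with PYY. Herc6, the ligase thought to attach ISG15 in mice, averaged 17.5 ± 12.2 CPM with semaglutide and 11.7 ± 8.68 in MetOP saline (SD, n = 5 each, log2 fold change 0.59 ± 0.49, edgeR adjusted p = 0.6489), and its fold change was 1.17 without A229 and 0.17 without A241.

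**Figure D3:**
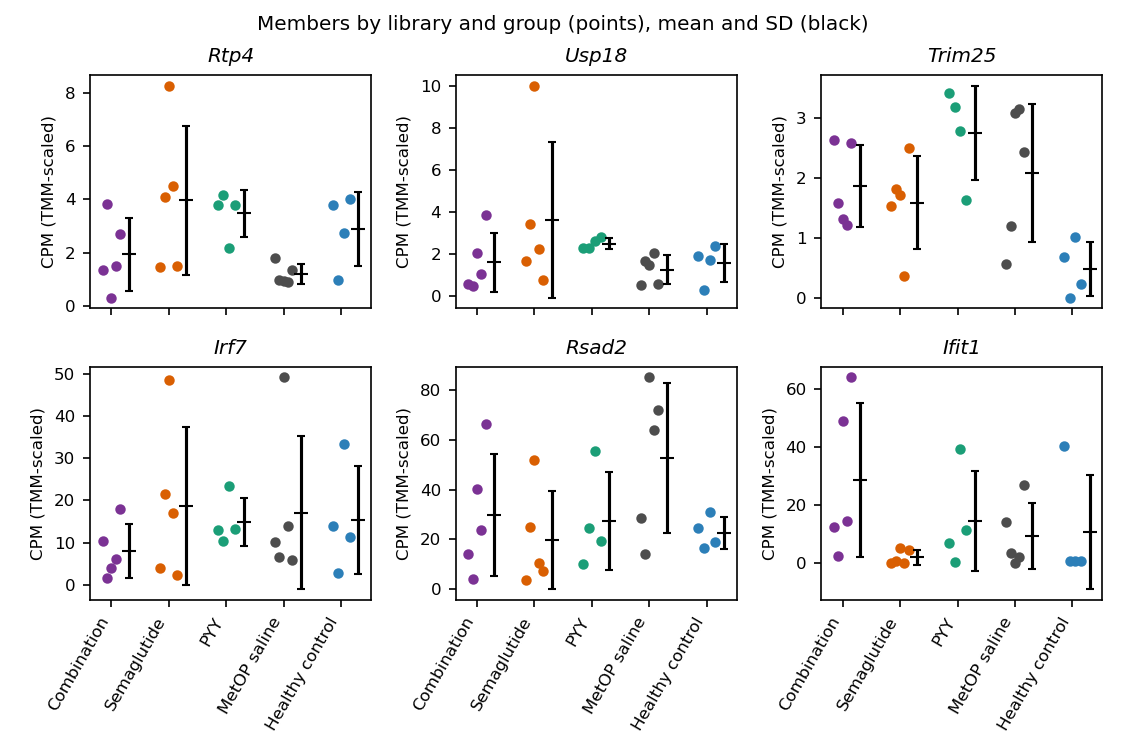
CPM scaled by TMM factors (vertical axes, linear from 0) of 6 members in each library (points) of the 5 groups, with the mean and SD beside them in black. Rtp4 and Usp18 lie higher in all 4 PYY libraries than in all 5 MetOP saline libraries, and in Irf7, Rsad2 and Ifit1 single libraries stand far from their groups.

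ADP-ribosylation genes of the response, Parp9, Parp14 and Dtx3l, encode partners that modify STAT and chromatin proteins. Parp14 averaged 14.2 ± 5.197 CPM with PYY (n = 4) and 7.64 ± 2.41 in MetOP saline (SD, n = 5), with 3 of 4 PYY libraries above every saline library (log2 fold change 0.89 ± 0.46, edgeR unadjusted p = 0.0644, adjusted p = 0.9999). Parp9 and Dtx3l gave 0.38 ± 0.51 and 0.41 ± 0.48 in the same comparison (edgeR adjusted p = 0.9999 and 0.9999).

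Rtp4, a chaperone for receptor transport that also inhibits the interferon response in mice, had the smallest p of the members in semaglutide versus MetOP saline, in PYY versus MetOP saline and in the interaction. It had 1.34, 3.83, 0.3096, 1.502 and 2.701 CPM in combination libraries and 1.45, 4.08, 8.26, 4.51 and 1.51 with semaglutide. It had 3.78, 4.15, 2.16 and 3.802 CPM with PYY, 1.797, 0.983, 0.935, 0.905 and 1.33 in MetOP saline and 3.77, 0.973, 2.74 and 4.03 in healthy controls. All 4 PYY libraries and 3 of 5 semaglutide libraries lay above every MetOP saline library. The log2 fold change from saline was 1.73 ± 0.57 with semaglutide (edgeR unadjusted p = 0.0062, adjusted p = 0.3885) and 1.54 ± 0.59 with PYY (unadjusted p = 0.0164, adjusted p = 0.9394). For the combination it was 0.70 ± 0.57 (edgeR adjusted p = 1.0) and 0.32 without A251, and the interaction was -2.56 ± 0.82 (unadjusted p = 0.0046, adjusted p = 0.9988). MetOP saline versus healthy control gave -1.26 ± 0.60 (edgeR unadjusted p = 0.0442, adjusted p = 0.7583), with 2 of 5 saline libraries below every healthy control. In combination versus semaglutide it gave -1.03 ± 0.56 (edgeR adjusted p = 0.8157), and -0.57 without A241. The comparisons with saline share its 5 libraries, so their values are not independent. The Rtp4 row (chromosome 11, 77238216 to 77335437, minus strand) overlaps Masp1 on the opposite strand, which had 24008 counts to the 1730 of Rtp4. Masp1 gave 0.97 ± 0.62 with semaglutide and -0.36 ± 0.65 with PYY, each versus MetOP saline (edgeR adjusted p = 0.5399 and 0.9999), so its sign was that of Rtp4 with semaglutide and not with PYY.
Ifi44, a member of unsettled function, had 11.9, 10.3, 13.7 and 7.03 CPM with PYY, against 5.72, 5.16, 9.42, 7.31 and 3.03 in MetOP saline. Of the PYY libraries, 3 lay above all saline libraries (log2 fold change 0.81 ± 0.37, edgeR unadjusted p = 0.0389, adjusted p = 0.9999). In MetOP saline versus healthy control it gave -0.43 ± 0.37 (edgeR adjusted p = 0.9426) and -0.26 without A265, and in semaglutide versus PYY -0.63 ± 0.37 (adjusted p = 0.3992). In combination versus MetOP saline it gave 0.45 ± 0.35 (edgeR adjusted p = 1.0), and 0.28 without A265. Ifi27, the most abundant member, had group means between 24.8 CPM with semaglutide and 31.5 CPM with PYY and was named in no comparison. Its row spans 122590472 to 122779294 on chromosome 6 and overlaps Ifi27l2b, Ppp4r4 and Serpina10. Lgals3bp, whose row overlaps Cant1 on the same strand, and Xaf1 and Ifi44l were likewise not named.

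Taking the members as a list, their direction can be set beside that of all genes. In PYY versus MetOP saline, 23 of 33 members were higher and 10 lower, with a median log2 fold change of 0.26 (all genes -0.01). With the leukocyte marker level as a covariate, the median was 0.61. In the same comparison, 10 of 10 endothelial markers were higher, with a median of 0.89, and 9 of 10 neutrophil markers lower, with a median of -1.30. Muscle and erythroid markers were lower for 10 of 10 and 9 of 9 genes, with medians of -0.62 and -0.81. Summed endothelial markers were 208 to 603 CPM with PYY and 175 to 246 in MetOP saline, and the part of these cells in the members' values was not tested, here and in the comparisons that follow. In combination versus MetOP saline, 15 members were higher and 18 lower (median -0.14, all genes 0.02). That median was 0.15 without saline A229 and 0.06 without combination A251, and 0.02 with the leukocyte covariate. Osteoblast markers were lower for 9 of 10 genes there (median -1.35), erythroid for 9 of 9 (median -0.29) and macrophage for 8 of 9 (median -0.44). Neutrophil (median 0.32) and muscle markers (median 0.25) were higher for 9 of 10 genes each. B cell (median 0.26) and T and NK cell markers (median 0.60) were higher for 6 of 7 each, and plasmacytoid dendritic cell markers for 5 of 6 (median 0.29). In semaglutide versus MetOP saline, 16 were higher and 17 lower (median -0.01, all genes -0.04), and it ran from -0.38 to 0.22 as single libraries were left out. It was 0.41 with the leukocyte and 0.16 with the muscle covariate. In that comparison all 10 osteoblast (median -2.33), 9 macrophage (median -1.26) and 9 erythroid markers (median -1.57) were lower, and all 10 muscle markers were higher (median 0.75). T and NK cell markers were lower for 6 of 7 genes (median -0.79). In MetOP saline versus healthy control, 18 were higher and 15 lower (median 0.14, all genes 0.04), and the median was -0.29 without saline A229 and -0.09 without healthy control A389. It was -0.02 with the leukocyte and -0.06 with the muscle covariate, and all 10 muscle markers were lower (median -0.42).
Between drug groups, 24 of 33 members were lower in combination than in PYY libraries, with a median of -0.40 (all genes 0.02), beside 10 of 10 endothelial markers lower, with a median of -0.80. Osteoblast markers were lower for 9 of 10 genes (median -1.41), while neutrophil (median 1.82) and muscle markers (median 1.14) were higher for 9 of 10 each. Erythroid markers were higher for 9 of 9 genes (median 0.50) and B cell markers for 6 of 7 (median 0.69). The members' median ran from -0.77 to -0.27 as single libraries were left out. In combination versus semaglutide, 20 were lower (median -0.19, all genes 0.05), and the median was 0.23 without semaglutide A241 and 0.03 without combination A251. All 10 neutrophil (median 0.92), 9 macrophage (median 0.99) and 9 erythroid markers (median 1.24) were higher there, and all 10 muscle markers were lower (median -0.41). All 10 osteoblast (median 1.02) and 7 T and NK cell markers (median 1.09) were also higher, as were 6 of 7 B cell markers (median 0.35). In semaglutide versus PYY, 20 were lower (median -0.15, all genes -0.06), and the median was 0.02 without semaglutide A243 and 0.08 with the muscle covariate. All 10 osteoblast (median -2.29), 10 endothelial (median -0.96) and 9 macrophage markers (median -1.06) were lower there, and all 10 muscle markers were higher (median 1.47). The 9 erythroid markers were also lower (median -0.69). Neutrophil markers were higher for 9 of 10 genes (median 0.95) and B cell markers for 6 of 7 (median 0.34). For the interaction, 26 of 33 were lower, with a median of -0.48 (all genes 0.03), and leaving out single libraries gave -0.77 to -0.14. In the interaction all 10 neutrophil (median 2.29), 9 erythroid (median 2.02), 9 macrophage (median 1.12), 7 T and NK cell (median 1.94) and 10 osteoblast markers (median 1.22) were higher, and all 10 endothelial markers were lower (median -0.71). B cell markers were higher for 6 of 7 genes (median 0.52). By mean CPM, PYY was the highest of the 5 groups for 12 of 33 members (26.8% of all genes) and semaglutide for 10 (24.4%). The combination was highest for 3 (14.9%), MetOP saline for 4 (17.2%) and healthy controls for 4 (16.7%).

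**Figure D4:**
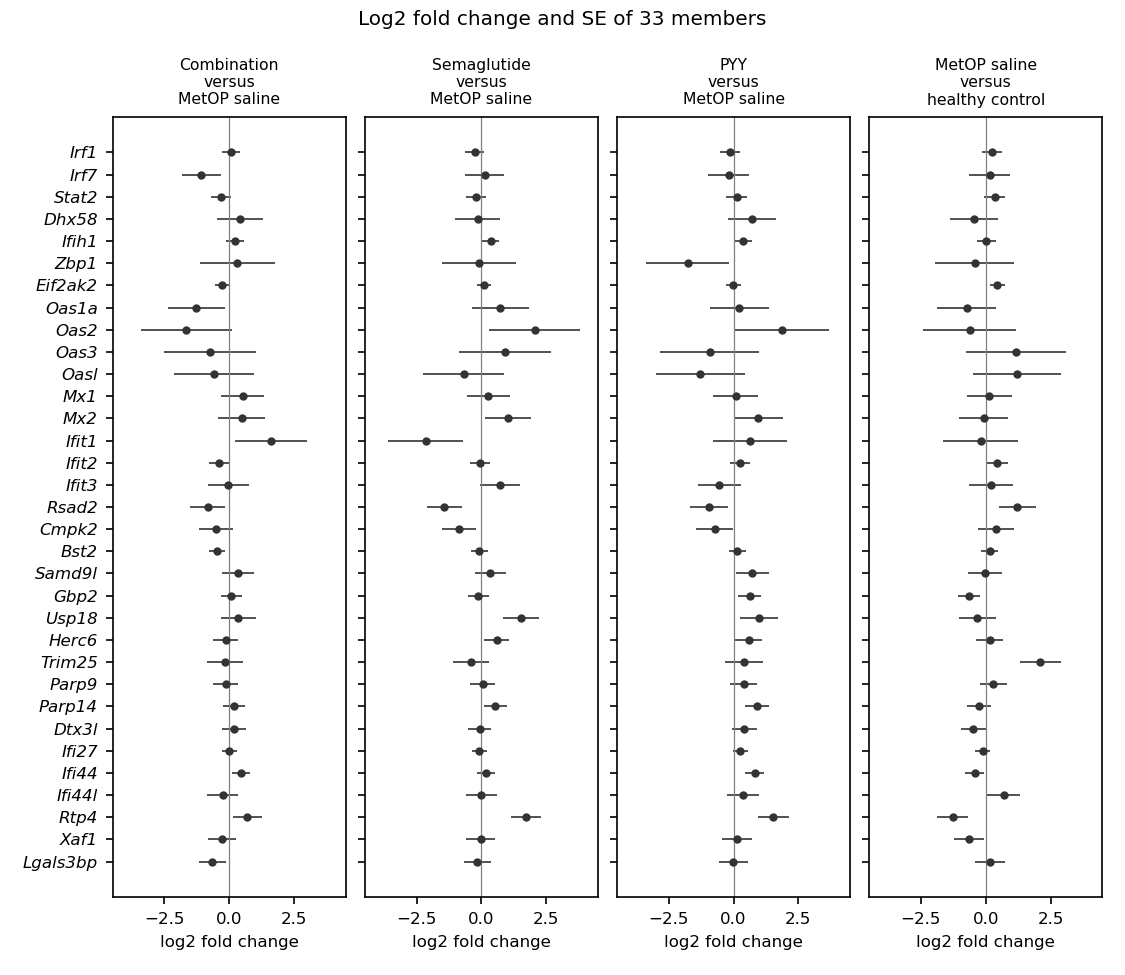
Log2 fold change (horizontal axes, points) with its SE (bars) of the 33 tested members (rows) in 4 comparisons, from the edgeR fit over all 23 libraries. Rtp4 and Usp18 lie to the right of 0 by more than their own SE with semaglutide and with PYY. Trim25 does so in MetOP saline versus healthy control, and no member passed an adjusted p under 0.05. Members beyond their own SE in either direction numbered 10 of 33 with semaglutide, 13 with PYY and 9 in MetOP saline versus healthy control.

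Upstream of the members, almost no interferon transcript was counted. Of 8 interferon genes matched, Ifnb1, Ifna1, Ifna4, Ifnk, Ifng, Ifnl1 and Ifnl3 had 0 counts in all 23 libraries, and Ifne had 15 counts over 2 libraries. Receptor chains were present, with mean FPKM of 9.67 for Ifngr1, 2.86 for Ifnar1, 2.47 for Ifngr2 and 1.72 for Ifnar2, while the interferon lambda receptor Ifnlr1 stood at 0.153 and Il10rb was listed at 0. None of the 5 receptor genes tested was called. Ifnar1, the first chain of the type I receptor, averaged 11.6 ± 3.05 CPM with semaglutide and 20.2 ± 4.84 in MetOP saline (SD, n = 5 each, log2 fold change -0.80 ± 0.35, edgeR unadjusted p = 0.0324, adjusted p = 0.4055). Semaglutide versus PYY gave -0.93 ± 0.37 for Ifnar1 and -0.87 ± 0.34 for Ifnar2, the second chain (edgeR adjusted p = 0.22 and 0.2143).
Of the 12 signalling genes tested, 11 were lower with semaglutide than in MetOP saline (median -0.24), where 47.59% of all genes were higher (median -0.04). Osteoblast, macrophage and erythroid markers were also lower there, as given above. In MetOP saline, 10 were higher than in healthy controls (median 0.45), beside 52.45% of all genes (median 0.04). Both counts share the 5 MetOP saline libraries. Versus MetOP saline, 6 were higher and 6 lower with PYY, and 5 higher and 7 lower with the combination. Socs3, which switches off JAK signalling, gave -1.58 ± 0.56 in semaglutide versus PYY (edgeR adjusted p = 0.1862). Of 9 tested genes that sense nucleic acids or pass the signal on, Mavs, the mitochondrial adaptor, gave 1.08 ± 0.51 with semaglutide versus MetOP saline (edgeR adjusted p = 0.4244). None of the signalling or sensing genes was called in any of the 8 comparisons.
Of 28 other tested target genes, 18 were higher with PYY than in MetOP saline (median 0.25), beside 49.48% of all genes (median -0.01). Rnf213, a large ubiquitin ligase, averaged 21.2 ± 2.46 CPM with PYY (n = 4) and 12.3 ± 1.89 in MetOP saline (SD, n = 5), and its lowest PYY library (18.9 CPM) lay above its highest saline library (13.9 CPM). Of all genes, 1.93% stood apart in that comparison, and the rest of this list was not counted in this way. Rnf213 was named for the smallest p of the list. The log2 fold change of Rnf213 was 0.78 ± 0.25 (edgeR unadjusted p = 0.0052, adjusted p = 0.8534). Cxcl10, a chemokine strongly induced by interferon gamma, had only 144 counts in all and was counted in 10 of 23 libraries. It was at 0 in all 5 MetOP saline libraries and also in some libraries of other groups. Its highest library had 1.16 CPM among combination libraries, 0.783 with semaglutide, 0.453 with PYY and 0.228 in healthy controls. At so few counts these values set no true fold. Ifitm2 and Ifitm3, membrane proteins that block virus entry, gave -0.94 ± 0.32 and -0.85 ± 0.29 in semaglutide versus PYY (edgeR adjusted p = 0.1794 each). No gene of this list was called in any comparison.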

How the data were processed

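The authors deposited raw counts per gene, 1 column per library, and FPKM values (fragments per kilobase per M) made by the authors from the same libraries, per the file headers. The FPKM were used only to compare levels between genes. The submitters' processing notes name the build mRatBN7.2 and the tool DESeq2 1.42.0. No aligner or counter is given in the sources used here. Library preparation with and without strand marking both appear in the labels' protocol, which leaves overlapping and antisense genes uncertain. No per-sample column was left unused. 

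Counts were tested in R 4.3.3 with edgeR 4.0.16 (quasi-likelihood, TMM factors, filterByExpr by group, robust), with 1 mean per group over all 23 libraries and 18 residual degrees of freedom, and with adjustment by the Benjamini-Hochberg method over 15271 genes. The SE of a fold change is its size divided by the square root of the test's F value. The fit was tried on simulated data with large changes in well-counted genes only, which does not cover low counts or smaller changes. Scores use log2 CPM with a prior count of 2. Alternatives were DESeq2 1.42.0, limma 3.58.1 (voom), RLE factors, no filter, no mitochondrially encoded genes, only the groups compared, muscle or leukocyte markers as covariates, and each library left out. Replicate numbers are not shared between groups, so no block was used. Values are given for the 3 members of smallest unadjusted p in each direction and comparison, and for the 5 highest and 5 lowest by FPKM. Pathway genes are named by the smallest p, at most 2 per list and comparison. The members, lists and rules were chosen with earlier results of these data known. Each library is called by its group and column name. Promoters are RefSeq windows of GRCr8, whose coordinates differ from those of mRatBN7.2. No pair of libraries was pooled.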

Additional observations from a re-analysis of the deposited data

Results flagged for a closer look

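Among the 20 members named in a comparison and the score over all members, each of the 5 groups was searched for a library standing far from the others, by Dixon's gap test. Of 105 groups tested, 13 had such a library. The cut-offs flag about 1 in 20 groups when values are normally spread. Linear CPM need not be, and the members were named by their p in these same libraries. The 13 therefore cannot be set against that rate. None of these values was left out, and their causes were not tested. The genes share libraries, so the flags are not independent.

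Semaglutide A241 stood apart in 4 genes, with 21.9 CPM of Cmpk2, 22.5 CPM of Ifit3, 13.7 CPM of Irf1 and 10.0 CPM of Usp18. MetOP saline A229 stood high with 27.1 CPM of Herc6, 49.2 CPM of Irf7 and 2.4 CPM of Oas3, and low with 3.27 CPM of Ifit2. Healthy control A387 had 13.5 CPM of Cmpk2 and 40.3 CPM of Ifit1, against at most 8.31 and 0.888 CPM in the other healthy controls. Combination A320 had 8.57 CPM of Zbp1 and 0.251 CPM of Oas2, and MetOP saline A226 had 0.86 CPM of Oas2, with Oas2 at 0 in all other libraries of both groups. With all others at 0, any count in 1 library meets the gap test, so these 2 of the 13 were set by the zeros.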

How the results depend on the processing

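No member was called under any setting tried. Of single members, 880 values kept their sign and stayed uncalled, whatever their size, which includes moves over 1.5 times. The members were named by their p in these same libraries, which favours a kept sign. A further 431 summary values stayed within the spread, among them counts of members called and medians that changed sign. The number of all genes called moved most. DESeq2 called 51 genes in MetOP saline versus healthy control, and versus MetOP saline 92 with semaglutide, 5 with PYY and 5 with the combination. It called 16 in combination versus semaglutide, 13 in combination versus PYY, 502 in semaglutide versus PYY and 3 for the interaction. limma voom called 1 in combination versus PYY, and the leukocyte covariate gave 142 in semaglutide versus PYY. As single libraries were left out, genes called ran from 0 to 1 in PYY versus MetOP saline, 0 to 3 in combination versus semaglutide, 0 to 2 in combination versus PYY and 1 to 1021 in semaglutide versus PYY (1021 without PYY A220). The members' median in PYY versus MetOP saline was 0.61 with the leukocyte covariate. Signs changed in 21 values of the members' median, whose extremes stand beside each median above, and in 12 of single members. In PYY versus MetOP saline, Zbp1 was 0.14 with the leukocyte covariate. In combination versus semaglutide, Irf1 was -0.0170 with the muscle and -0.027 with the leukocyte covariate, and -0.13 to 0.63 as single libraries were left out (lowest without A320). In combination versus PYY, Zbp1 was -0.39 with limma voom, -0.33 with the leukocyte covariate and -0.22 (without A320) to 2.43 as libraries were left out, and Ifit3 was -0.00639, -0.24 and -0.20 to 0.73 under the same settings. In semaglutide versus PYY, Oas3 was -1.26 with limma voom and Ifit3 -0.043 (without A241) to 1.56 as libraries were left out. The causes were not tested. No paired analysis was possible because the groups share no replicate numbers. Counts outside mitochondrially encoded genes were as few as 4.28 M, in MetOP saline A229. Oas2, Oas3, Oasl and Zbp1 were at 0 in 5 to 11 libraries. In that order, A229 had 0, 36, 65 and 19 counts of them. Combination A251, with 12.25 M counts outside mitochondrially encoded genes, had 0, 0, 8 and 0. Whether depth plays a part in these zeros was not tested. The part of depth in the values of Isg15 and Irf9, whose rows overlap other genes, was not tested.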

Other observations

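Genes of antigen processing and presentation, which interferon gamma is known to induce, spanned a wide range of levels in the femora, without any call by edgeR in the 8 comparisons. B2m, the light chain of MHC class I, had a mean of 135 FPKM, Psme1 and Psme2, which activate the proteasome, 26.6 and 9.32 FPKM, and the immunoproteasome subunits Psmb8 and Psmb9 5.04 and 2.38 FPKM. Tap1, Nlrc5 and Ciita stood at 1.48, 0.575 and 0.145 FPKM, and Tapbp was listed at 0. Of 10 tested genes, 8 were lower in MetOP saline than in healthy controls (median log2 fold change -0.26), 8 were lower with semaglutide than in MetOP saline (median -0.11) and 9 were higher in combination than in semaglutide libraries (median 0.24). In that order, 52.45%, 47.59% and 53.67% of all genes were higher. Versus MetOP saline, 6 were higher and 4 lower with PYY, and likewise with the combination. Erap1, which trims peptides for MHC class I, averaged 23 ± 6.46 CPM with PYY (n = 4) and 13.7 ± 4.51 in MetOP saline (SD, n = 5), a log2 fold change of 0.74 ± 0.26 (edgeR unadjusted p = 0.0084, adjusted p = 0.8534). These comparisons share libraries, and the list was chosen with earlier results of these data known.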
